A study of Mus musculus with 2 samples.

Results

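Interferon regulatory factors are transcription factors that bind interferon-stimulated response elements and related motifs in DNA. Irf3, Irf5 and Irf7 are activated downstream of sensors of foreign nucleic acid and switch on interferon genes, and Irf9 is the DNA-binding part of ISGF3, the complex that carries the type I interferon signal to antiviral genes. Irf1 is an activator induced by interferon and Irf2 an antagonist at many of the same sites, while Irf4 and Irf8 are largely restricted to immune cells, where they work with the ETS factors PU.1 and Spi-B or with Batf and Jun in the development of B cells, plasma cells and dendritic cells. The 8 genes described here, Irf1, Irf2, Irf3, Irf4, Irf5, Irf7, Irf8 and Irf9, were chosen by symbol from the 32285 features of the count tables. The molecules of each gene were summed per library over cells gated by marker genes, none of which is 1 of the 8.

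The data came from mouse spleen cells profiled by droplet sequencing of transcript 3' ends, in which unique molecular identifiers (UMIs) count captured RNA molecules. The design holds 1 M694I knock-in library, from a mouse whose Mefv gene for the inflammasome sensor pyrin carries that change, and 1 library from a wild-type control mouse. Mice were matched for age, which is not given, and were kept free of specific pathogens without any treatment named in the labels. The titles name 1 mouse per library, so differences between the genotypes, between mice and between libraries cannot be told apart, no test was possible, and every interval below covers counting error only, with UMIs taken as independent. The label of the mutant library does not say whether 1 or both alleles carry the change.

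After filtering, 8374 knock-in and 9478 wild-type cells were kept, with 23729015 UMIs in the knock-in and 29993419 UMIs in the wild-type library and medians of 2017 knock-in and 2522 wild-type UMIs per cell. The knock-in library was thus the shallower one. Some shares of cells with a UMI are given below also after thinning to 1000 UMIs, which left out cells with fewer. Shares without a thinned value are not adjusted for depth. Of the cell barcodes, 21 kept ones occurred in both libraries. Mefv had 75 UMIs in knock-in and 144 UMIs in wild-type cells, and counts of 3' ends do not show which base the transcripts carried. B-like cells numbered 5186 in the knock-in and 6050 in the wild-type library, T-like cells 1773 knock-in and 1878 wild-type, NK-like cells 135 knock-in and 260 wild-type, monocyte-like cells 159 knock-in and 178 wild-type, and plasma cell-like cells 167 knock-in and 41 wild-type. Smaller classes were the plasmacytoid dendritic-like cells (34 knock-in, 24 wild-type), the neutrophil-like cells (46 knock-in, 100 wild-type), the macrophage-like cells (19 knock-in, 23 wild-type) and the conventional dendritic-like cells (6 knock-in, 13 wild-type). Markers kept out of the gates were highest in their own class for 3 of 3 B cell, 3 of 3 plasma cell, 3 of 3 NK cell, 3 of 3 neutrophil and 4 of 4 plasmacytoid genes. They were highest for 2 of 3 T cell genes (Cd2 was higher in B-like cells), for 2 of 3 monocyte genes, and for 4 of 8 conventional dendritic genes, among which Zbtb46 was at 0, so the last class is not read further than its values.

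In the GENCODE M21 annotation of GRCm38 (mm10), Irf1 lies at chr11:53770014-53778374, Irf2 at chr8:46739732-46847458, Irf3 at chr7:44997648-45002848 and Irf4 at chr13:30749226-30766976. Irf5 lies at chr6:29526625-29541871, Irf7 at chr7:141262706-141266481, Irf8 at chr8:120736358-120756694 and Irf9 at chr14:55603571-55610030, and Irf7 alone is on the minus strand. Windows from 250 bases before to 50 bases after the start of each were taken from RefSeq on GRCm38.p6, which matched 8 of 8 genes and gives 2 starts for Irf1, Irf8 and Irf9. Both strands of these windows were searched for the response element of ISGF3 and the interferon regulatory factors, written as 2 GAAA runs with 2 bases between them, and for the gamma-activated site of interferon-gamma signalling, TTCNNNGAA. The first set of letters occurs in 3.44% and the second in 8.30% of the 32851 windows of this length in the table. The stretches with a match, in Irf1, Irf2 and Irf8, are shown because interferon signals are known to raise some family members through such sites. Capitals mark the match, and all stretches are on the plus strand.
Irf1 gamma-activated site, chr11:53769894-53769962: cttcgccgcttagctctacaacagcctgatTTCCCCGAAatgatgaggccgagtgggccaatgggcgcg
Irf2 response element, chr8:46739495-46739543: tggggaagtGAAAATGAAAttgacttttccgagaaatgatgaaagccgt
Irf2 gamma-activated site, chr8:46739495-46739559: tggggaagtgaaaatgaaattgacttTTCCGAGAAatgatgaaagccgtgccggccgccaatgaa
Irf8 first gamma-activated site, chr8:120736157-120736225: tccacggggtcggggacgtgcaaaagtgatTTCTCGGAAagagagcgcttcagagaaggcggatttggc
Irf8 second gamma-activated site, chr8:120736175-120736243: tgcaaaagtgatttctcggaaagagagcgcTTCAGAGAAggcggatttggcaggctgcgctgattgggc
The Irf1 match lies 90 to 82 bases before the first RefSeq start. The matches of Irf2 lie 241 to 232 and 224 to 216 bases before its start, and those of Irf8 lie 171 to 163 and 153 to 145 bases before the first start, with no overlap between them. The windows of Irf3, Irf4, Irf5, Irf7 and Irf9 hold neither set of letters, which says nothing of sites elsewhere in these genes.

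Over all kept cells, 1 of 8 factors was higher by at least 0.32 on the log2 scale in the knock-in library, Irf7, and 1 was lower, Irf4. This limit corresponds to 1.25-fold, and among the 7077 genes with at least 20 summed UMIs and a mean of 10 CPM (the UMIs of a gene scaled to a common total over the cells compared), 12.5% were higher and 22.4% lower by it, so these counts lie near the background. Irf7 had 40.8 (38.3 to 43.5) CPM in knock-in and 29.0 (27.1 to 31.0) CPM in wild-type cells, with 95% counting intervals in parentheses, a log2 ratio of 0.50 (0.36 to 0.63). Irf4 had 72.1 (68.7 to 75.6) CPM in knock-in and 117 (114 to 121) CPM in wild-type cells, a log2 ratio of -0.70 (-0.79 to -0.62). Further on, parentheses that open with log2 hold the log2 ratio of knock-in over wild-type CPM and its 95% interval, and genes past both of these minimums in the class named are called measured. The other 6 factors lay between -0.21 (Irf3) and 0.15 (Irf1). Whole-spleen sums mix classes of unequal size, and with every class set to its mean share over both libraries the Irf7 ratio was 0.58, the Irf4 ratio was -0.66 and the Irf8 ratio was -0.05, against -0.17 unweighted. Each factor is therefore described by class, and the order of its levels refers to the 7 classes with at least 20 cells in each library.

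**Figure D1:**
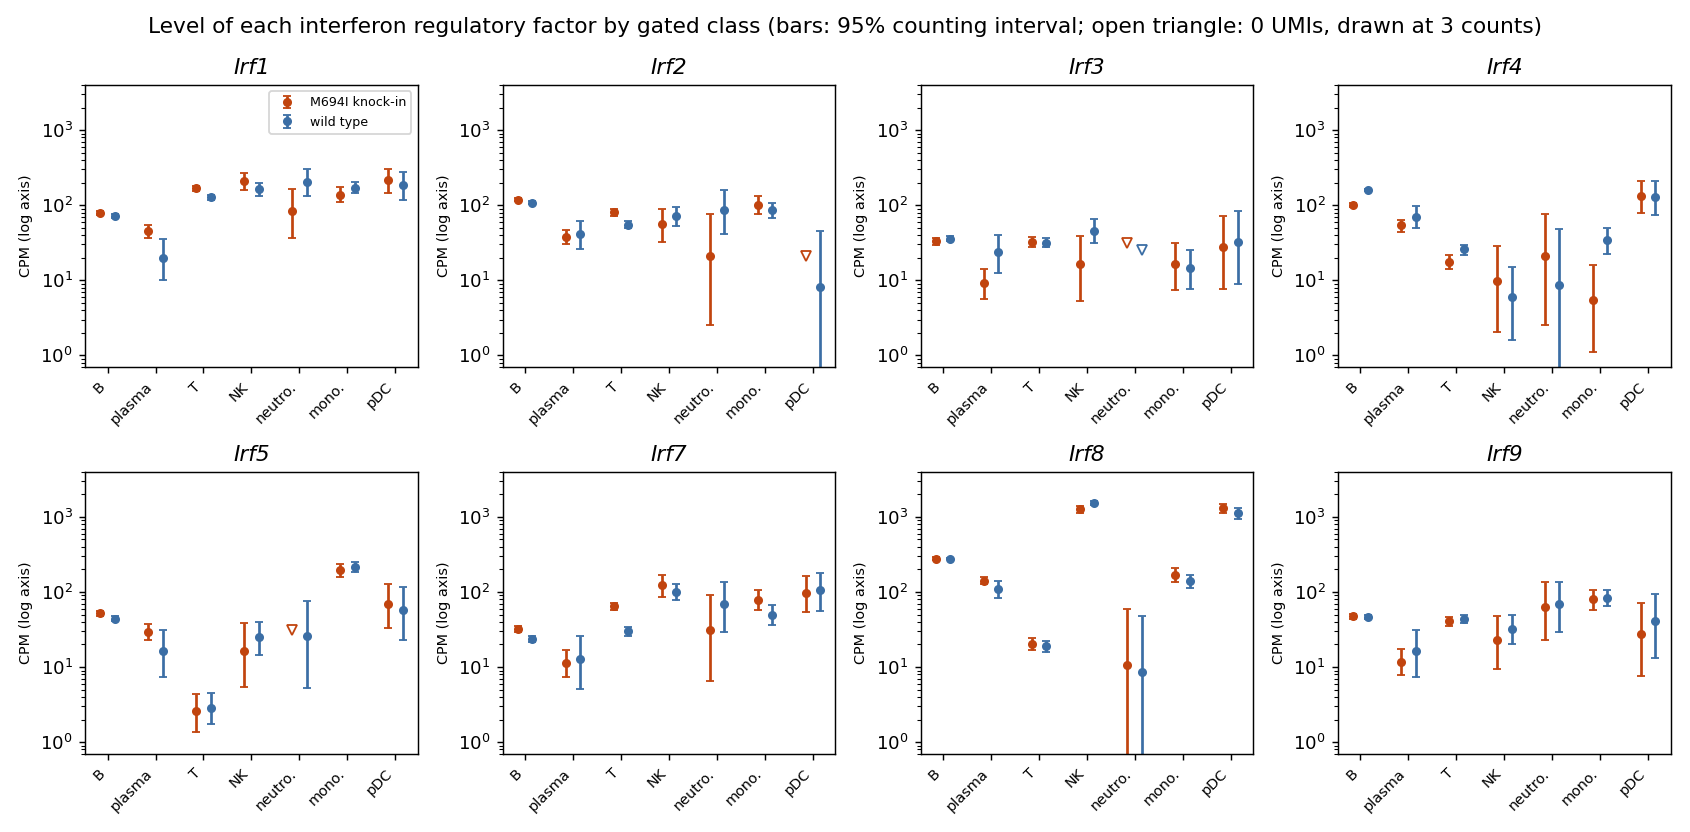
CPM (log axis) of each factor in 7 gated classes, with the M694I knock-in library (orange) left of the wild-type library (blue); points are sums over cells, bars 95% counting intervals and open triangles sums of 0 UMIs drawn at 3 counts. Irf8 stands highest in NK-like and plasmacytoid dendritic-like cells, Irf5 in monocyte-like cells, and Irf4 in plasmacytoid dendritic-like and B-like cells, in both libraries.

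Irf8, which directs the development of several dendritic and monocyte lineages and takes part in B cell development, had its highest mean level over the libraries in NK-like cells, with 1262 CPM in the knock-in and 1512 CPM in the wild-type library. Plasmacytoid dendritic-like cells followed by mean level, with 1298 knock-in and 1119 wild-type CPM, and their order against NK-like cells differed between the libraries. A UMI of Irf8 was found in 100% of plasmacytoid dendritic-like cells of either library, in 84.4% of knock-in and 90.8% of wild-type NK-like cells, and in 4.40% of knock-in and 5.06% of wild-type T-like cells, the class in which little Irf8 is known. The T-like shares were found at medians of 2480 knock-in and 3045 wild-type UMIs per cell, and the part of RNA from other cells in them was not tested. B-like cells held 279 CPM in knock-in and 279 CPM in wild-type cells, and supplied 65.9% of all knock-in and 65.6% of all wild-type Irf8 UMIs. Monocyte-like cells, at 168 knock-in and 138 wild-type CPM, did not differ from plasma cell-like cells, at 142 knock-in and 109 wild-type CPM, beyond the counting intervals.

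Between the libraries, Irf8 in B-like cells had a log2 ratio of 0.00 (-0.06 to 0.06), the narrowest interval of the 8 factors. In NK-like cells it was lower in the knock-in library, at -0.26 (-0.43 to -0.09), from 382 knock-in and 1024 wild-type UMIs, a difference inside the limit of 0.32. When NK-like cells were taken from clusters instead of gates, Irf8 had 1120.4 CPM in 265 knock-in cells and 1396 CPM in 420 wild-type cells. In that cluster the B-like gate markers summed to 319 knock-in and 81.4 wild-type CPM. The T-like ones summed to 727 knock-in and 389 wild-type CPM, while monocyte gate markers went the other way, at 66.8 knock-in and 99.9 wild-type CPM. The 3 NK cell markers kept out of the gates summed to 5141 knock-in and 5793 wild-type CPM. The part of these genes was not tested. In plasmacytoid dendritic-like cells the Irf8 ratio was 0.21 (-0.11 to 0.54). Classical monocyte-like cells, which carry Ly6c2 and Ccr2, had 159 CPM in the knock-in and 105 CPM in the wild-type library (log2 0.60, 0.07 to 1.13). Non-classical ones, which carry Ace and Treml4, had 127 knock-in and 226 wild-type CPM from 12 knock-in and 43 wild-type UMIs (log2 -0.83, -1.89 to 0.12). The 2 monocyte subsets thus lay on opposite sides of 0, and the interval of the second includes 0.

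Irf4, which rises in B and T cells on antigen receptor signals and is needed for plasma cells, stood highest in plasmacytoid dendritic-like and B-like cells. It had 133 CPM in knock-in and 129.7 CPM in wild-type plasmacytoid dendritic-like cells, from 19 knock-in and 16 wild-type UMIs, and these intervals overlap those of B-like cells in both libraries. Below them came plasma cell-like cells, with 53.7 knock-in and 70.7 wild-type CPM, and then T-like cells, with 17.6 knock-in and 25.8 wild-type CPM. NK-like cells held only 3 knock-in and 4 wild-type UMIs, in 1.48% of knock-in and 1.54% of wild-type cells at medians of 2073 knock-in and 2341 wild-type UMIs. B-like cells supplied 75.6% of the knock-in and 82.3% of the wild-type Irf4 UMIs.

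In B-like cells Irf4 was lower in the knock-in library, with 1292 UMIs or 101 (96.0 to 107) CPM, against 2898 UMIs or 160.2 (154 to 166) CPM in the wild-type library, a log2 ratio of -0.66 (-0.75 to -0.56). A UMI was found in 19.0% (17.9% to 20.1%) of knock-in and 32.1% (30.9% to 33.3%) of wild-type B-like cells, and after thinning in 8.99% of knock-in and 13.9% of wild-type cells, so a smaller share of knock-in cells gave an Irf4 molecule at equal depth. It was the 1 factor of 8 that was lower by the limit in this class, where 18% of 6874 measured genes were lower and 14.2% higher by it. Irf7 was the 1 factor that was higher. At a wider limit of 0.58, Irf4 was again the 1 factor lower and 0 were higher, beside 3.2% of genes lower and 2.92% higher.

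The lower Irf4 level was seen in each division of the B-like cells by marker genes that was made. Cells with at least 2 of 7 activation markers (Mir155hg, Nfkbid, Nr4a1, Nr4a3, Egr2, Egr3 and Myc), which numbered 1518 in the knock-in and 1924 in the wild-type library, had 135 knock-in and 216 wild-type CPM (log2 -0.68, -0.82 to -0.55). Of these 7 genes, several answer the antigen receptor, as Irf4 does. The remaining B-like cells had 82.4 CPM in the knock-in and 124 CPM in the wild-type library (log2 -0.59, -0.73 to -0.46). Activated cells therefore held more Irf4 than the rest in both libraries, and the 2 ratios overlap in their intervals.

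Counted by the number of activation markers with a UMI, Irf4 in cells with 0 markers was 74.5 CPM in the knock-in and 108 CPM in the wild-type library. With 1 marker it was 91.3 CPM in knock-in and 141 CPM in wild-type cells, with 2 markers 126 knock-in and 190.5 wild-type CPM, and with 3 or more 145 knock-in and 242 wild-type CPM. The groups held 566 to 2052 knock-in and 846 to 2203 wild-type cells. Irf4 was higher with each further marker in either library, while its log2 ratio stayed between -0.74 and -0.53 over the 4 groups. Cells with more markers were also deeper, with medians of 1696 to 2864.5 knock-in and 2193 to 3453.5 wild-type UMIs, and the part of depth in this gradient was not tested. Irf8 over the same 4 groups lay between 273 and 287 CPM in knock-in cells and between 257 and 290.4 CPM in wild-type cells, with no such gradient.

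**Figure D2:**
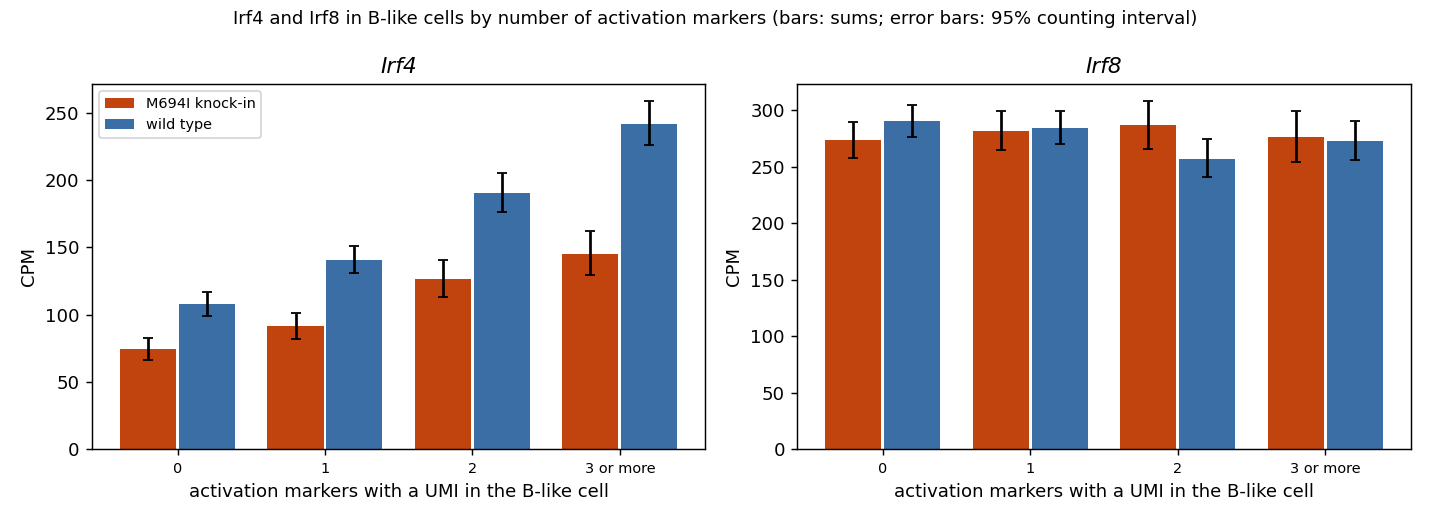
CPM of Irf4 (left) and Irf8 (right) in B-like cells grouped by how many of 7 activation markers gave a UMI, with M694I knock-in bars (orange) left of wild-type bars (blue) and 95% counting intervals. Irf4 is lower in the knock-in library in all 4 groups and higher where more markers were seen, whereas Irf8 bars stay between 257 and 290.4 CPM.

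Marginal zone B-like cells, 233 knock-in and 395 wild-type ones with Cr2, Cd1d1 and like markers, had 139 CPM of Irf4 in the knock-in and 207 CPM in the wild-type library (log2 -0.58, -0.86 to -0.31). Transitional B-like cells, which carry Vpreb3, Cd93 and Cd24a, had 84.5 knock-in and 160.4 wild-type CPM (log2 -0.92, -1.17 to -0.68). In clusters built without the 8 factors, Irf4 was lower in the knock-in library in 6 of 6 B-like clusters of at least 100 cells per library, at log2 ratios from -0.75 to -0.34. The cluster with the highest Irf4 held 331 knock-in and 798 wild-type cells, at 200.5 CPM in the knock-in and 337 CPM in the wild-type library. Among smaller B-like clusters, that of 138 knock-in and 79 wild-type cells had 61.3 knock-in and 66.1 wild-type CPM (log2 -0.11, -0.63 to 0.43). That of 23 knock-in and 29 wild-type cells had a log2 ratio of -1.48 (-3.25 to -0.007). The difference was thus present inside the 6 larger clusters as well as over the whole class.

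In plasma cell-like cells Irf4 had 123 knock-in and 39 wild-type UMIs, a log2 ratio of -0.40 (-0.93 to 0.16). Immunoglobulin RNA takes a large share of UMIs in these cells, and with it left out of the total Irf4 stood at 89.5 knock-in and 112 wild-type CPM, while 45.5% of knock-in and 51.2% of wild-type cells held a UMI. The interval includes 0, and the 41 wild-type cells limit the comparison. T-like cells had 89 knock-in and 170 wild-type UMIs of Irf4, or 17.6 knock-in and 25.8 wild-type CPM (log2 -0.55, -0.94 to -0.17). The CD8 T-like cells lay on the same side (log2 -0.73, -1.43 to -0.05), and the CD4 T-like cells on the other (log2 0.60, -0.41 to 1.59, from 17 knock-in and 21 wild-type UMIs). By cluster, the Irf4 ratio was below 0 in 2 of 4 T-like clusters and above 0 in 2, from -1.62 to 0.17. Monocyte-like cells held 3 Irf4 UMIs in the knock-in and 28 in the wild-type library, a log2 ratio of -2.65 (-5.01 to -0.95). With monocytes taken from a cluster, there were 14 knock-in and 31 wild-type UMIs and the ratio was -0.71 (-1.73 to 0.25). The 6 B-like gate markers summed to 120.2 knock-in and 84.3 wild-type CPM in gated monocyte-like cells and to 312 knock-in and 380.3 wild-type CPM in that cluster, where the 3 B cell markers kept out of the gates summed to 115 knock-in and 238 wild-type CPM, and their part was not tested.

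The genes by which Irf4 and Irf8 are known to act in B cells were counted beside them. Of 10 such genes, 7 were measured in B-like cells, with 0 higher and 2 lower by the limit, beside 14.2% of genes higher and 18% lower, and a median log2 ratio of -0.26, against -0.03 over all measured genes. Ciita, the master regulator of MHC class II, had 55.5 knock-in and 85.7 wild-type CPM (log2 -0.63, -0.76 to -0.50), and Bcl6, the repressor that marks germinal centre B cells, had 31.2 knock-in and 47.1 wild-type CPM (log2 -0.59, -0.77 to -0.42). In plasma cell-like cells 8 were measured, with 0 higher and 5 lower and a median of -0.41, against -0.12 over all genes, of which 20.9% were higher and 36.9% lower. Prdm1, which shares the control of plasma cells with Irf4, had 41.9 knock-in and 76.2 wild-type CPM there (log2 -0.86, -1.40 to -0.30), and is also 1 of the markers that gated this class. Of 14 partners and cofactors, 12 were measured in B-like cells, with 4 higher and 2 lower and a median of -0.14. Among them Batf had 18.4 knock-in and 11.1 wild-type CPM (log2 0.73, 0.46 to 1.01) and Jun 347 knock-in and 239 wild-type CPM (log2 0.54, 0.48 to 0.60). Jun also belongs to a list of stress genes that rise when tissue is dissociated, of which 5 of 7 measured were higher and 1 was lower in B-like cells. The member farthest above 0 was Fos, at 361 knock-in and 201 wild-type CPM (log2 0.84, 0.78 to 0.91), while Egr1, a gene that also answers the antigen receptor, was lower (log2 -0.55, -0.73 to -0.38). The part of handling in the B-like results was not tested.

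Markers of other cells in the B-like class did not all lie the same way. The gate markers of plasma cells, of which 6 of 7 were detected in either library and Tnfrsf17 was at 0 in both, summed to 139.5 knock-in and 99.4 wild-type CPM. Those of monocytes, 9 of 10 in either library, summed to 27.7 knock-in and 18.0 wild-type CPM, and those of erythroid cells, 5 of 6 in either library, to 25.6 knock-in and 12.99 wild-type CPM. The 3 NK cell markers kept out of the gates summed to 18.3 knock-in and 7.07 wild-type CPM, while the 6 NK-like gate markers summed to 1.49 knock-in and 1.33 wild-type CPM. Neutrophil gate markers were lower in the knock-in library, at 2.59 knock-in and 6.91 wild-type CPM. All 6 T-like gate markers were detected in either library, at sums of 19.5 knock-in and 18.5 wild-type CPM, and 7 of 8 plasmacytoid markers, at 56.6 knock-in and 59.5 wild-type CPM. The 6 gate markers of B-like cells themselves summed to 5776 knock-in and 4747 wild-type CPM. The 3 B cell markers kept out of the gates, Ebf1, Pax5 and Blk, lay the other way, at 2196 knock-in and 2668 wild-type CPM. The part of these markers in the B-like values was not tested.

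Irf7, the factor that interferon itself induces and that amplifies the interferon response, had its highest mean levels in NK-like, plasmacytoid dendritic-like and monocyte-like cells. NK-like cells had 122 knock-in and 100.4 wild-type CPM, plasmacytoid dendritic-like cells 97.7 knock-in and 105 wild-type CPM, and monocyte-like cells 78.3 knock-in and 50.1 wild-type CPM. The intervals of plasmacytoid dendritic-like cells overlap those of NK-like and of monocyte-like cells in both libraries, and NK-like and monocyte-like cells overlap in the knock-in library only. Plasma cell-like cells were lowest, with 11.4 knock-in and 12.7 wild-type CPM.

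Among the classes in which Irf7 was measured, T-like cells had the ratio farthest from 0. They had 324 UMIs or 64.1 (57.3 to 71.5) CPM in the knock-in library, against 199 UMIs or 30.2 (26.1 to 34.7) CPM in the wild-type library, a log2 ratio of 1.09 (0.83 to 1.35). A UMI was found in 14.0% (12.4% to 15.7%) of knock-in and 9.37% (8.09% to 10.8%) of wild-type T-like cells, and after thinning in 6.50% of knock-in and 3.69% of wild-type cells. CD8 T-like cells had 51.6 knock-in and 26.8 wild-type CPM (log2 0.95, 0.47 to 1.44), and T-like cells without a Cd8a or Cd8b1 UMI had 74.6 knock-in and 31.6 wild-type CPM (log2 1.24, 0.92 to 1.56). The few cells with a Cd4 UMI, 172 knock-in and 246 wild-type, gave 1.24 (0.52 to 1.97). Irf7 was thus higher in the knock-in library in each of these subsets, and in 4 of 4 T-like clusters, at log2 ratios from 0.64 to 1.19.

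Elsewhere the difference in Irf7 was smaller or less certain. B-like cells had 31.9 knock-in and 23.8 wild-type CPM (log2 0.42, 0.22 to 0.62), and 6 of 6 B-like clusters had ratios above 0, from 0.14 to 0.67. Transitional B-like cells went the other way, with 21.5 knock-in and 24.7 wild-type CPM and an interval that includes 0 (log2 -0.20, -0.75 to 0.33). Monocyte-like cells had a ratio of 0.65 (-0.01 to 1.30), NK-like cells one of 0.28 (-0.33 to 0.88), and plasmacytoid dendritic-like cells, known as the chief source of type I interferon, one of -0.11 (-1.31 to 1.10). The T-like interval lies above that of B-like cells, and each of the other 3 intervals overlaps both. With monocytes and NK cells taken from clusters, Irf7 was higher by the limit in both, with intervals that leave out 0. The ratio was 0.73 (0.10 to 1.36) in the monocyte-like and 0.51 (0.05 to 0.96) in the NK-like cluster. The part of markers of other cells in these clusters was not tested.

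Irf1, an activator of antigen-processing and guanylate-binding protein genes, followed the order of plasmacytoid dendritic-like, NK-like, monocyte-like, T-like, neutrophil-like, B-like and plasma cell-like cells by mean level. The highest had 216 knock-in and 186 wild-type CPM, and the first 2 neighbours overlap in both libraries. In T-like cells Irf1 had 850 UMIs or 168 (157 to 179.9) CPM in the knock-in and 837 UMIs or 127 (118 to 136) CPM in the wild-type library (log2 0.41, 0.27 to 0.55). CD8 T-like cells had 189 knock-in and 140.2 wild-type CPM (log2 0.43, 0.21 to 0.65), and those without a CD8 UMI 151 knock-in and 121 wild-type CPM (log2 0.31, 0.13 to 0.50). Irf1 was thus higher in the knock-in library in both subsets. B-like cells differed less, at 79.3 knock-in and 72.4 wild-type CPM (log2 0.13, 0.01 to 0.25). After thinning to 1000 UMIs the B-like ratio was 0.43, past the limit. NK-like cells had 208 knock-in and 162 wild-type CPM (log2 0.36, -0.11 to 0.82) and monocyte-like cells 138 knock-in and 171 wild-type CPM (log2 -0.30, -0.73 to 0.11), with 0 inside both intervals.

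Irf2, the antagonist of Irf1 at shared sites, had its highest mean level in B-like cells, where 119 knock-in and 109 wild-type CPM were found, and its lowest of the 7 classes plotted in plasmacytoid dendritic-like cells, with 0 knock-in and 1 wild-type UMIs. Monocyte-like cells overlapped B-like cells in both libraries, at 102 knock-in and 85.5 wild-type CPM. In T-like cells Irf2 had 406 UMIs or 80.3 (72.7 to 88.5) CPM in the knock-in and 363 UMIs or 55.1 (49.5 to 61.0) CPM in the wild-type library (log2 0.54, 0.34 to 0.75). The cells without a CD8 UMI had 81.1 knock-in and 46.6 wild-type CPM (log2 0.80, 0.52 to 1.08), whereas CD8 T-like cells had 79.6 knock-in and 73.0 wild-type CPM (log2 0.12, -0.20 to 0.45). Those 2 intervals do not overlap, and over all T-like cells the knock-in library had more of both Irf1 and Irf2. In B-like cells the ratio was 0.13 (0.03 to 0.22), from 0.39 (0.22 to 0.55) in cells that passed the activation gate and -0.02 (-0.14 to 0.10) in those that did not. By cluster, the Irf2 ratio was below 0 in 4 of 6 B-like clusters, from -0.28 to 0.38.

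**Figure D3:**
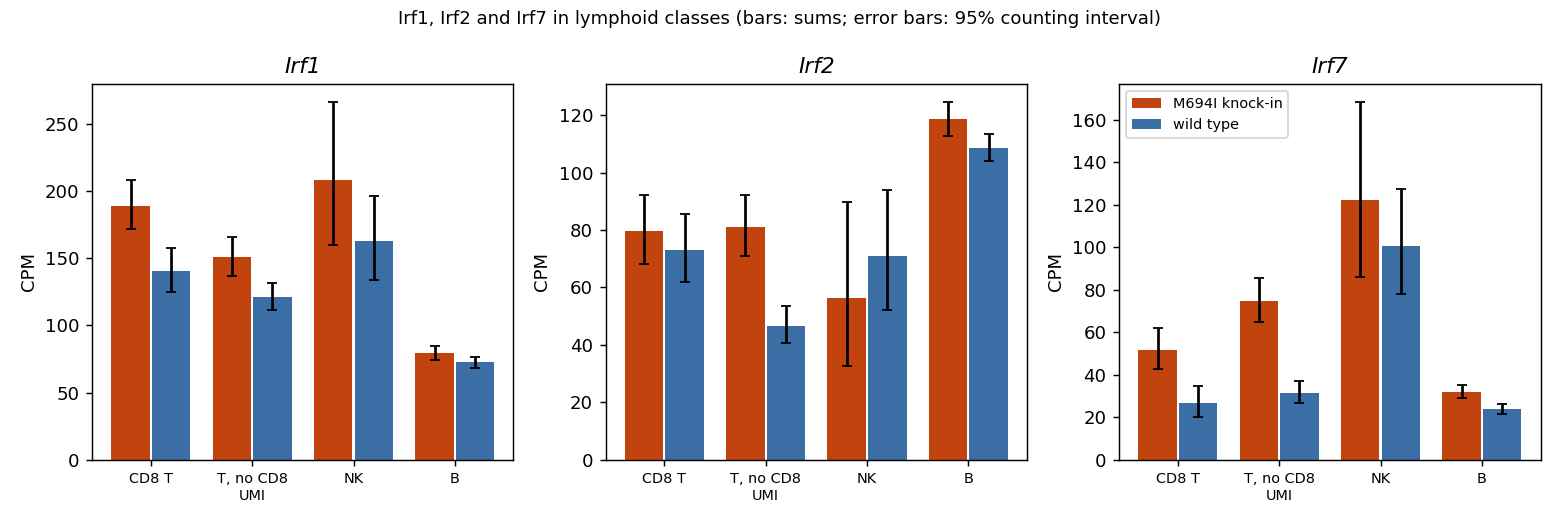
CPM of Irf1, Irf2 and Irf7 in CD8 T-like cells, T-like cells without a Cd8a or Cd8b1 UMI, NK-like cells and B-like cells, with M694I knock-in bars (orange) left of wild-type bars (blue) and 95% counting intervals. The knock-in Irf7 bars of both T-like subsets stand clear of the wild-type ones, and the Irf2 bars do so in the subset without a CD8 UMI.

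In T-like cells 7 of 8 factors were measured, and 3 were higher (Irf1, Irf2 and Irf7) and 1 lower (Irf4) by the limit, beside 18.1% of 6774 genes higher and 13.3% lower. At the wider limit of 0.58, 1 was higher and 0 were lower, beside 4.92% of genes higher and 2.95% lower. The median ratio of the measured factors was 0.12, against 0.03 over all genes. All 6 B-like gate markers were detected in T-like cells of either library, at a sum of 44.3 knock-in and 39.9 wild-type CPM. Of 10 monocyte markers, 5 were detected in knock-in and 7 in wild-type T-like cells, at sums of 34.4 knock-in and 19.0 wild-type CPM, with Ace and Adgre4 at 0 in both. Of 10 macrophage markers, 7 were detected in knock-in and 5 in wild-type T-like cells, at sums of 13.8 knock-in and 4.40 wild-type CPM, with Slc40a1, Mertk and Adgre1 at 0 in both. Both sums were higher in the knock-in library, and their part in the T-like values was not tested. The stress list had 4 of 7 measured genes higher and 1 lower in T-like cells, and its part was not tested either.

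The pathway around these factors was counted in T-like cells from lists of known members. Over all measured genes of this class 18.1% were higher and 13.3% lower by the limit, and the median was 0.03. Of 13 receptors and signal transducers, 11 were measured, with 5 higher and 0 lower and a median log2 ratio of 0.25. Ifnar2, a chain of the type I interferon receptor, had 57.0 knock-in and 39.0 wild-type CPM (log2 0.55, 0.30 to 0.80), and Socs1, an inhibitor that interferon induces, had 79.5 knock-in and 55.8 wild-type CPM (log2 0.51, 0.30 to 0.72). Of 18 activators of the factors, 9 were measured, with 2 higher and 2 lower, and those farthest from 0 were the kinase Ikbke (log2 0.47, 0.11 to 0.84) and the RNA sensor Ddx58 (log2 0.45, 0.05 to 0.85). The targets of ISGF3 had 9 of 17 measured, with 6 higher and 1 lower and a median of 0.40. Ifit3 had 19.8 knock-in and 9.86 wild-type CPM (log2 1.00, 0.54 to 1.48), while Ifit1, of the same family, had 17.8 knock-in and 30.9 wild-type CPM and was lower in the knock-in library (log2 -0.80, -1.17 to -0.43). The 2 family members, which share similar sequence, thus lay on opposite sides. Of 16 targets of Irf1, 15 were measured, with 9 higher and 0 lower and a median of 0.39. Psmb8, an immunoproteasome subunit, had 396 knock-in and 212 wild-type CPM (log2 0.91, 0.81 to 1.01), and Casp1, the protease that pyrin inflammasomes activate, had 19.2 knock-in and 6.52 wild-type CPM from 97 knock-in and 43 wild-type UMIs (log2 1.56, 1.02 to 2.11). Among 10 measured partners, 4 were higher and 1 lower, with Jun (log2 0.63, 0.52 to 0.75) and Batf (log2 0.61, 0.38 to 0.84) the farthest from 0.

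In B-like cells, where 14.2% of genes were higher and 18% lower and the median was -0.03, 11 receptors and transducers were measured. Their median was -0.01, with 0 higher and 3 lower, among them Stat3 (log2 -0.36, -0.46 to -0.27) and Ifnar1, the other chain of the type I receptor (log2 -0.35, -0.46 to -0.25). Of 11 measured activators, whose median was -0.22, 1 was higher and 4 lower, with the endosomal RNA sensor Tlr7 at 11.9 knock-in and 18.2 wild-type CPM (log2 -0.61, -0.90 to -0.33) and the kinase Tbk1, which phosphorylates Irf3, at 40.5 knock-in and 54.3 wild-type CPM (log2 -0.42, -0.58 to -0.27). Of the targets, 4 of 6 measured ISGF3 genes (median 0.36) and 6 of 13 measured Irf1 genes (median 0.18) were higher and 0 lower in either list. With no filter on low counts, 7 of 17 ISGF3 targets were higher and 3 lower in B-like cells, and the counts in T-like cells were also 7 and 3. Of 16 Irf1 targets 6 were then higher and 0 lower in B-like cells, and 10 higher and 0 lower in T-like cells. Of the 18 activators, 4 were then higher and 6 lower in B-like cells, and 4 higher and 4 lower in T-like cells. No share over all genes was taken without the filter, so these unfiltered counts have no background beside them and are not read further. Psmb8 had 349.9 knock-in and 198 wild-type CPM (log2 0.82, 0.76 to 0.89), Psmb9 had 157 knock-in and 95.3 wild-type CPM (log2 0.72, 0.63 to 0.82), and the nucleic acid sensor Zbp1 had 21.4 knock-in and 13.7 wild-type CPM (log2 0.64, 0.39 to 0.89). Bst2, which tethers budding virus, gave 0.54 (0.40 to 0.68). The difference between the classes was not tested.

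Irf5, Irf3 and Irf9 lay inside the limit in B-like and monocyte-like cells, as did Irf3 and Irf9 in T-like cells. Some subsets of these classes lay past it. Irf5 was higher by the limit in transitional B-like cells, and Irf5 and Irf9 were lower by it in non-classical monocyte-like cells. In CD4 T-like cells Irf9 was higher and Irf3 lower by it. Irf5, which acts below Toll-like receptors in myeloid and B cells, was highest among the classes plotted in monocyte-like cells. These had 195 knock-in and 216 wild-type CPM (log2 -0.15, -0.51 to 0.21). Their counting intervals of CPM did not overlap those of the 6 other classes plotted. Conventional dendritic-like cells, which were not plotted, had 130 knock-in and 218 wild-type CPM of Irf5, from 5 knock-in and 22 wild-type UMIs. The dendritic-like cluster had 171 (143 to 203) knock-in and 159 (136 to 184) wild-type CPM. It overlapped the monocyte-like cluster in both libraries, which had 177 (145 to 215) knock-in and 204 (174 to 238) wild-type CPM. Gated B-like cells had 52.3 knock-in and 44.1 wild-type CPM of Irf5 (log2 0.25, 0.10 to 0.40), inside the limit. By cluster, the Irf5 ratio was above 0 in 5 of 6 B-like clusters, from -0.001 to 0.46. In T-like cells Irf5 was at 2.57 knock-in and 2.88 wild-type CPM, with a UMI in 0.733% of knock-in and 0.905% of wild-type cells, a level read as background. Irf3, which is made in most cells and activated by phosphorylation, had 32.9 knock-in and 36.0 wild-type CPM in B-like cells (log2 -0.13, -0.31 to 0.05) and 32.2 knock-in and 31.7 wild-type CPM in T-like cells (log2 0.02, -0.28 to 0.33). Its B-like ratio was below 0 in 6 of 6 clusters, from -0.26 to -0.03. Irf9 had 47.3 knock-in and 46.7 wild-type CPM in B-like cells (log2 0.02, -0.13 to 0.17), 41.0 knock-in and 43.7 wild-type CPM in T-like cells (log2 -0.09, -0.36 to 0.17) and 80.2 knock-in and 83.0 wild-type CPM in monocyte-like cells (log2 -0.05, -0.63 to 0.52). Its 4 highest classes by mean level, monocyte-like, neutrophil-like, B-like and T-like, each overlapped the next in both libraries.

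In the smaller classes the counts allow less. In NK-like cells 7 factors were measured, with 1 higher (Irf1) and 4 lower (Irf2, Irf3, Irf5 and Irf9), beside 21.1% of genes higher and 32.8% lower. Of these 5 only the Irf3 interval left out 0, from 5 knock-in and 31 wild-type UMIs (log2 -1.47, -3.19 to -0.10). Of 6 T cell gate markers, 4 were detected in knock-in and 5 in wild-type NK-like cells, at sums of 370.1 knock-in and 257 wild-type CPM, with Cd6 at 0 in both, and their part was not tested. The stress list in NK-like cells had 4 of 7 measured genes higher and 0 lower, with a median of 0.54 against -0.08 over all genes, and its part was not tested either. In monocyte-like cells 8 were measured, with 1 higher (Irf7) and 1 lower (Irf4), beside 22.7% of genes higher and 27.1% lower. ISGF3 targets in these cells had 5 of 10 measured genes higher and 0 lower, with Isg15 at 69.2 knock-in and 33.0 wild-type CPM (log2 1.07, 0.32 to 1.84), while 6 of 9 stress genes were lower and 0 higher. In plasma cell-like cells 3 were higher (Irf1, Irf5 and Irf8) and 3 lower (Irf3, Irf4 and Irf9), beside 20.9% of genes higher and 36.9% lower. Irf1 had 103 knock-in and 11 wild-type UMIs there, or 74.9 knock-in and 31.6 wild-type CPM with immunoglobulin left out of the total, and a log2 ratio on the full total of 1.17 (0.27 to 2.22). Irf3 had 21 knock-in and 13 wild-type UMIs there (log2 -1.36, -2.43 to -0.24). In the wild-type library, 1 cell held 36.4% of these Irf1 UMIs and 1 cell held 30.8% of these Irf3 UMIs. With plasma cells taken from a cluster, the Irf3 ratio was -1.07 (-2.71 to 0.81), from 11 knock-in and 5 wild-type UMIs, and its interval includes 0. The Irf1 ratio in that cluster was 1.47 (0.36 to 2.82). Of 9 stress genes in plasma cell-like cells 4 were higher and 2 lower, and the median ratio was -0.01. Among them the heat shock gene Hspa1a had 158 knock-in and 0 wild-type UMIs, and its copy Hspa1b 124 knock-in and 1 wild-type UMIs. Macrophage gate markers, 9 of 10 detected in knock-in and 6 of 10 in wild-type cells with Mertk at 0 in both, summed to 32.3 knock-in and 14.5 wild-type CPM. The 3 macrophage markers kept out of the gates, 2 detected in either library and Cd163 at 0 in both, summed to 359 knock-in and 132 wild-type CPM. The part of these genes in the plasma cell-like ratios was not tested. In neutrophil-like cells Irf1 was the 1 factor measured, with 8 knock-in and 24 wild-type UMIs (log2 -1.29, -2.65 to -0.09), where the median of all genes was -0.63. Irf3 was at 0 UMIs there in both libraries, which allows up to 31.6 CPM in the knock-in and 25.7 CPM in the wild-type library at a limit of 3 counts.

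**Figure D4:**
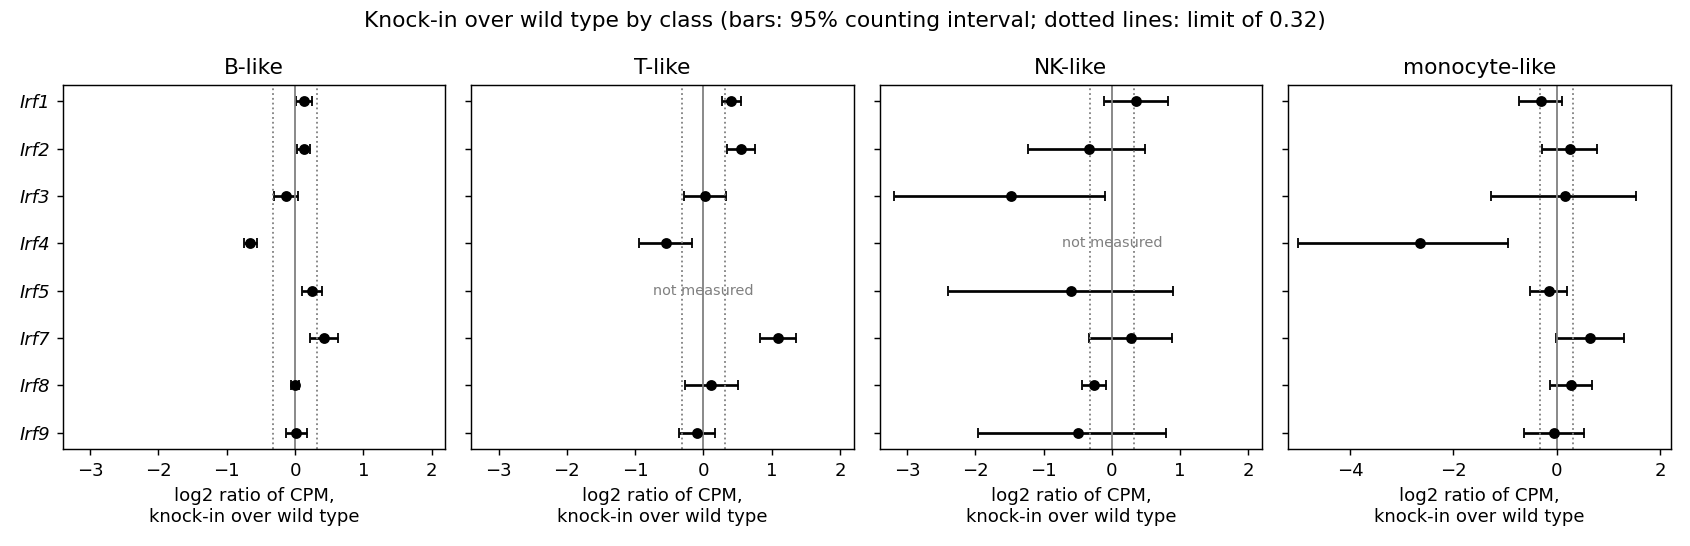
Log2 ratio of CPM, knock-in over wild type, for each factor in B-like, T-like, NK-like and monocyte-like cells, with 95% counting intervals and dotted lines at the limit of 0.32 on either side of 0. Irf4 lies left of 0 in B-like, T-like and monocyte-like cells, Irf7 lies farthest right in T-like cells, and the bars of NK-like and monocyte-like cells are wide.

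Genes whose level ran most like that of a factor were sought over 10 pairs of class and library with at least 50 cells, among 4586 genes, by the Pearson correlation of log2(CPM + 1). Irf4 ran most like Cr2, the complement receptor of marginal zone and follicular B cells (0.93), Stt3b (0.91) and Cxcr5 (0.90). Irf8 ran most like Lrrk1 (0.95), Hes1 (0.93) and Gm50012 (0.91), and Irf7 most like Myl6 (0.96), the class I gene H2-D1 (0.95) and Prex1 (0.94). Irf5 ran most like Lmo4 (0.98), Apobec1 (0.96) and Stx7 (0.95), and Irf1 most like Ostf1, Mapkapk3 and Fosl2 (each 0.96). Irf2 ran most like Sla and Plekhf2 (each 0.92) and Rel (0.89), Irf3 like Ssb, Zup1 and Luc7l3 (each 0.99), and Irf9 like Pip4k2a (0.96), Kdm7a (0.96) and Atp2c1 (0.95). The 10 pairs share 2 libraries and a few classes, so these values describe the order of classes and carry no p-value.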

How the data were processed

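The deposited matrices give raw counts (UMIs by gene and barcode) for 1 M694I knock-in and 1 wild-type library, not normalized by the authors. Per the file headers the counts were made with Cell Ranger 6.1.2, while Cell Ranger 7.1.0, Seurat 5.0.3 and mm10 stand in the submitters' processing notes. For the annotation and the choice of barcodes, details were not given in the sources used here. Cells were kept from 500 UMIs and 200 genes upward if mitochondrial RNA made up less than 10% of their UMIs. Doublet scores came from Scrublet in scanpy 1.11.5 within each library, and its automatic threshold marked 1 knock-in and 157 wild-type cells. A score of at least 0.35 was therefore used for both, chosen after the data were seen, which removed 209 knock-in cells (2.44%) and 255 wild-type cells (2.62%).

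Each cell took the class with the most different markers, at least 2 (3 for lists of over 6 genes). A cell stayed mixed if another class had over 1 marker for each 2 of its own, and among the 4 myeloid classes only on a tie. This left 603 knock-in and 667 wild-type cells without a class and 224 knock-in and 238 wild-type cells mixed. The tie rule, the joining of conventional dendritic lists, the groups by activation marker number and the values per cluster were chosen after the data were seen.

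UMIs were summed per library and class and scaled to CPM. Levels carry exact Poisson intervals, shares of cells exact Clopper-Pearson intervals and log2 ratios exact conditional binomial intervals (scipy 1.17.1), all at 95%. With 1 library per genotype no significance test was made. A gene was measured with at least 20 summed UMIs and a mean of 10 CPM, and counted as higher or lower when its log2 ratio was at least 0.32 in size. The interval code was tested on simulated data.

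All 8 factors are named. Lists name the 2 measured genes of largest absolute ratio per class, of which the text gives a part, and likeness names the 3 highest correlations, leaving out antigen receptor segments, mitochondrial and ribosomal protein genes and genes under 50 CPM in every pair. The factors, lists and rules were chosen with earlier results of these data known. Alternatives were a mitochondrial limit of 5%, minima of 1000 UMIs and 500 genes, doublets kept, totals without immunoglobulin, TMM factors from edgeR 4.0.16 in R 4.3.3, equal weight per cell, cells thinned to 1000 UMIs, gates of 3 markers, Leiden clusters (leidenalg 0.10.2) built without the factors, leaving out each library's highest cell, mean class shares, B-like cells without activated ones, T-like subsets, a limit of 0.58 and no filter on low counts.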

Additional observations from a re-analysis of the deposited data

How the results depend on the processing

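No paired analysis was possible because each genotype has 1 library and the labels carry no replicate numbers. Of 486 alternative values of 46 ratios, 36 had the other sign. Of these, 3 concerned ratios past the limit of 0.32, namely Irf4 in CD4 T-like cells alone (0.60) and, with NK cells taken from clusters, Irf2 (0.011) and Irf5 (0.31) there. The other 33 concerned 13 ratios inside the limit, and 6 of them reached it on the other side. These were Irf1 (0.39) and Irf8 (-0.65) in monocyte-like and Irf2 (0.98) in plasma cell-like cells after thinning, Irf3 (-0.47) and Irf9 (0.45) in CD4 T-like cells, and Irf3 (-0.36) in monocyte-like cells with each cell weighted equally. Apart from the first 3, 454 values stayed within their counting interval and 29 left it. In T-like cells, Irf2 was inside the limit in the CD8 subset (0.12) and Irf1 in the CD4 subset (0.25). The number of factors higher in B-like cells was 2 after thinning and 0 at the limit of 0.58, and in T-like cells that limit left 1 higher and 0 lower. The B-like Irf4 ratio ranged from -0.72 to -0.59, the T-like Irf7 ratio from 0.95 to 1.24 and the B-like Irf7 ratio from 0.34 to 0.50 over these alternatives. TMM factors shifted ratios by 0.03 in B-like, -0.05 in T-like and 0.20 in plasma cell-like cells. Thinning took 12 ratios out of their interval and left 30 inside, and the cause was not tested. Small numbers of cells limit the NK-like, monocyte-like, plasma cell-like and dendritic-like classes, where most intervals include 0.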

Other observations

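Clusters built without the 8 factors held more dendritic-like cells than the gates, in 1 cluster of 162 knock-in and 195 wild-type cells. It held both plasmacytoid and conventional dendritic markers, and the mix of these types per library was not measured. By gates, the 34 knock-in and 24 wild-type plasmacytoid dendritic-like cells had 1298 knock-in and 1119 wild-type CPM of Irf8. The part of this mix in the values of the cluster was not tested. Irf8 had 460.0 (413 to 510.5) CPM in knock-in and 358 (324 to 395) CPM in wild-type cells of this cluster, a log2 ratio of 0.36 (0.15 to 0.57). Irf1 had the ratio farthest from 0 there, at 137 knock-in and 90.0 wild-type CPM (log2 0.61, 0.20 to 1.02). Irf4, which is known for a role in conventional dendritic cells, had 70.0 knock-in and 96.3 wild-type CPM there, a log2 ratio of -0.46 (-0.96 to 0.02). Irf7 had 51.8 knock-in and 45.5 wild-type CPM, a log2 ratio of 0.19 (-0.45 to 0.82). A cluster named macrophage-like, of 87 knock-in and 79 wild-type cells, held 31 knock-in and 62 wild-type UMIs of Irf4, and the log2 ratio of CPM had an interval of -1.67 to -0.35. Its macrophage gate markers summed to 2407 knock-in and 2061 wild-type CPM, less than its B-like gate markers, so the name does not mark it as macrophages alone. Those B-like gate markers summed to 3900.2 knock-in and 2827 wild-type CPM, its B-like markers outside the gates to 1829 knock-in and 2142 wild-type CPM and its erythroid markers to 36182 knock-in and 96.8 wild-type CPM, and their part in the Irf4 values was not tested. Macrophage-like cells taken by gates held only 3 knock-in and 9 wild-type Irf4 UMIs.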
